A study of Mus musculus with 13 samples.

Results

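Retinal ganglion cells are the output neurons of the eye, and the genes described here are those whose transcripts are commonly used to mark them in the mouse retina. The members are the 3 neurofilament subunit genes Nefl, Nefm and Nefh, the 3 POU-domain transcription factor genes Pou4f1, Pou4f2 and Pou4f3, and Slc17a6, Rbpms, Sncg and Thy1. They were taken by name from the table of nuclear genes and make up 10 of the 29700 genes counted. All 10 passed the filter on low counts, as did 16782 genes in all.

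RNA from 1 retina per mouse was sequenced in bulk for 13 mice aged about 2 months. The TMB group held 5 Rpe65-/- mice that ate tamsulosin, metoprolol and bromocriptine mixed into their chow from postnatal day 22 until collection on day 64. The chow thus paired antagonists of alpha-1 (tamsulosin) and beta-1 (metoprolol) adrenoceptors with a D2-class dopamine agonist, bromocriptine. The vehicle group held 4 Rpe65-/- mice kept on the base chow over the same days, and the wild-type group held 4 C57BL/6J mice of 2 months on base chow. Rpe65 encodes the isomerohydrolase of the pigment epithelium that regenerates visual chromophore, and its loss models Leber congenital amaurosis, a photoreceptor disease. The labels place the knockout on C57BL/6J, and the study's own account is of a C57BL/6J-based line, whose exact background its animal details give as unknown but probably mostly C57BL/6J. Any remaining difference of strain cannot be told apart from genotype. The submitters' text counts 3 wild-type mice but 4 wild-type libraries are labelled and tabulated, and all 4 entered the fits.

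Ganglion cells lie in the innermost cell layer, receive input from bipolar and amacrine cells and send their axons through the optic nerve. Neurofilaments are the intermediate filaments that fill these axons, while Pou4f factors (also called Brn3a, Brn3b and Brn3c) direct the differentiation and survival of ganglion cells. Of the 10 genes, Slc17a6, Thy1 and the neurofilaments are not strictly limited to ganglion cells, since a few other retinal neurons also use them. In bulk RNA, fewer ganglion cells and less of a transcript per cell cannot be told apart.

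Nuclear and mitochondrial counts together reached 14155121 to 16787202 per library in the TMB group, 14203273 to 16861577 in the vehicle group and 14377462 to 17186113 in wild type. A level is given as counts per 1000000 nuclear counts of the library (CPM), and 3 counts correspond to 0.182 to 0.222 CPM. Rpe65 was read 0 to 7 times in the TMB libraries and 1 to 8 times in the vehicle libraries, against 72 to 226 times in wild type. Wild type F4 stood apart from its group. The 20% of genes with the highest GC content deviated from their mean over all libraries by -0.19 to 0.13 (log2) in the TMB group and by 0.12 to 0.33 in the vehicle group. In wild type they deviated by -0.49 to -0.33 in M1, M2 and F3 but by 0.28 in F4. Vehicle F2 is labelled female but held 0.0659 CPM of Xist and 92.2 CPM of the Y-linked Eif2s3y. For the members and the gene lists whose calls are reported, calls against wild type that changed when either library was left out are given both ways.

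Ganglion cell transcripts were plainly present in every library. The least abundant member, Pou4f3, was still counted 58 times in wild type M2, which is 3.53 CPM with an exact binomial 95% interval of 2.68 to 4.56 (counting error only). Per kilobase of exon, mean levels ran from Nefl, with 91.7 CPM per kb in TMB libraries, 84.0 in vehicle libraries and 126 in wild type, down to Pou4f3, with 1.81, 2.31 and 2.06 CPM per kb in the same groups. Sncg was second to Nefl in TMB libraries at 70.2 CPM per kb and in wild type at 60.6 CPM per kb, but had the highest mean in vehicle libraries at 91.5 CPM per kb, where its range overlapped that of Nefl. In all 3 groups Thy1 followed these, then Nefh, Nefm and Slc17a6 in varying order, then Pou4f1, Rbpms and Pou4f2. Neighbours in this order that overlapped were Sncg and Nefl in vehicle libraries, Sncg and Thy1 in wild type, Nefh and Nefm in both Rpe65-/- groups, Nefm and Slc17a6 in TMB libraries and wild type, and Nefh and Slc17a6 in wild type.

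Set against wild type, 4 of the 10 genes were lower in the TMB group and 4 in the vehicle group, and none was higher in either. Nefl, Slc17a6 and Pou4f2 were lower in both groups, Pou4f1 was called lower in the TMB group and Rbpms in the vehicle group. These calls come from edgeR's quasi-likelihood test at a Benjamini-Hochberg adjusted p under 0.05. Over all genes tested, 9.53% were called for TMB against wild type (5.02% lower and 4.51% higher) and 33.9% for vehicle against wild type (18.3% lower and 15.7% higher). The median log2 fold change of the members was -0.30 in TMB libraries, beside 0.00 over all genes, and -0.18 in vehicle libraries, beside 0.02 over all genes. The 4 wild-type libraries serve both comparisons, so that the shared calls are not independent of each other. Without wild type F4, 38% of all genes were called for TMB (18.4% lower and 19.6% higher) and 55.6% for vehicle (27.1% lower and 28.5% higher). Of the members, 5 were then lower and 1 higher in the TMB group, and 5 lower and 2 higher in the vehicle group. Without vehicle F2 the shares of all genes were 8.87% for TMB (4.7% lower and 4.18% higher) and 30.6% for vehicle (17.1% lower and 13.6% higher), with 4 members lower in each group and 1 higher in the vehicle group.

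**Figure D1:**
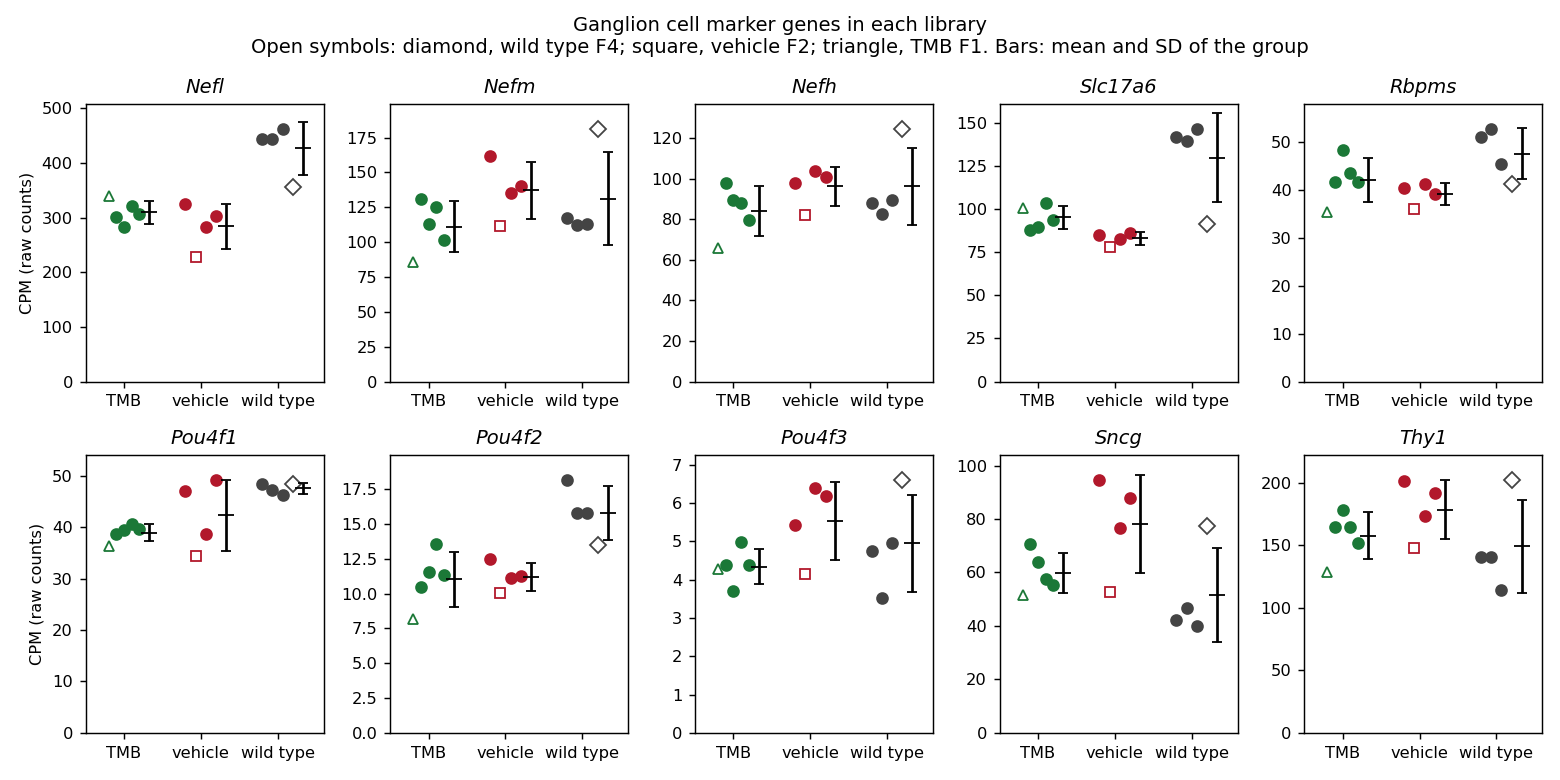
Level of each ganglion cell gene in CPM of nuclear counts (vertical axes, linear, from 0), one point per library, for TMB, vehicle and wild-type libraries from left to right, with the mean and SD of each group as a bar. Nefl lay between 283 and 339 CPM in TMB libraries and between 228 and 325 CPM in vehicle libraries, all under the lowest wild-type library at 355 CPM, while wild type F4 (open diamond) was the highest library of its group for Nefm, Nefh, Sncg and Thy1.

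Nefl, the light neurofilament subunit that nucleates filament assembly, was the most abundant member by count. It measured 339, 302, 283, 320 and 306 CPM in TMB libraries F1, F3, F4, M5 and M6. Vehicle libraries F1, F2, M4 and M5 held 325, 228, 282 and 302 CPM, against 444, 444, 462 and 355 CPM in wild-type libraries M1, M2, F3 and F4. Every Rpe65-/- library therefore lay below every wild-type library, with vehicle F2 the lowest of all. The group means were 310 ± 21.01 CPM in TMB libraries (SD, n = 5), 284 ± 41.4 in vehicle libraries and 426 ± 48.2 in wild type (SD, n = 4 each). The fitted log2 fold change was -0.54 ± 0.10 (SE) for TMB against wild type (edgeR, adjusted p = 0.00284) and -0.68 ± 0.11 for vehicle against wild type (edgeR, adjusted p = 0.000625). Nefl was called lower in all 26 alternative settings of both comparisons, among them those without wild type F4 (-0.62 for TMB and -0.75 for vehicle) and without vehicle F2 (-0.54 and -0.60).

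Nefm and Nefh, the medium and heavy subunits that carry the long phosphorylated tail domains, did not follow Nefl in these counts. Nefm measured 85.6, 131, 113, 125 and 101 CPM in TMB libraries F1, F3, F4, M5 and M6, and 162, 111, 135 and 140 CPM in vehicle libraries F1, F2, M4 and M5. In wild type M1, M2 and F3 it lay within 112 to 118 CPM, but wild type F4 held 181 CPM. The Nefm ranges thus overlapped between all groups, and the highest library of the 13 was a wild-type one. Nefm had a log2 fold change of -0.32 ± 0.15 for TMB (edgeR, adjusted p = 0.199) and -0.03 ± 0.16 for vehicle against wild type (edgeR, adjusted p = 0.896).

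Nefh gave the same picture at a lower level. It measured 65.6 to 98.0 CPM in TMB libraries, 82.1 to 104 CPM in vehicle libraries and 82.7 to 125 CPM in wild type, where the 125 CPM of F4 stood above 82.7 to 89.6 CPM in the other 3. Its log2 fold change was -0.27 ± 0.13 for TMB (edgeR, adjusted p = 0.185) and -0.09 ± 0.13 for vehicle against wild type (edgeR, adjusted p = 0.603). TMB F1 was the lowest of all 13 libraries for both Nefm and Nefh, while its Nefl was the highest of the TMB group.

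The balance of the 3 subunits differed among libraries, as the plot of neurofilament shares shows. Nefl made up 56.9% to 62.8% of the summed neurofilament counts in TMB libraries F3, F4, M5 and M6 and 69.1% in TMB F1. The share was 54.1% to 55.6% in the 4 vehicle libraries, against 68.3% to 69.5% in wild type M1, M2 and F3 and 53.7% in wild type F4. TMB F1 therefore sat with the 3 like wild-type libraries, and wild type F4 with the vehicle libraries. The summed level of the 3 genes did not show this split: it was 485 to 533 CPM in TMB libraries, 421 to 584 CPM in vehicle libraries and 639 to 665 CPM in wild type, F4 included, with no overlap between either Rpe65-/- group and wild type. Nefl was 53.7% to 69.5% of this sum and lay apart by itself, so the sum largely restates Nefl. Nefm and Nefh each overlapped between the groups. Single genes lay apart and lower for 3.22% of all genes (TMB) and 5.28% (vehicle). These sums and shares were examined after the values had been seen and were given no test.

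**Figure D2:**
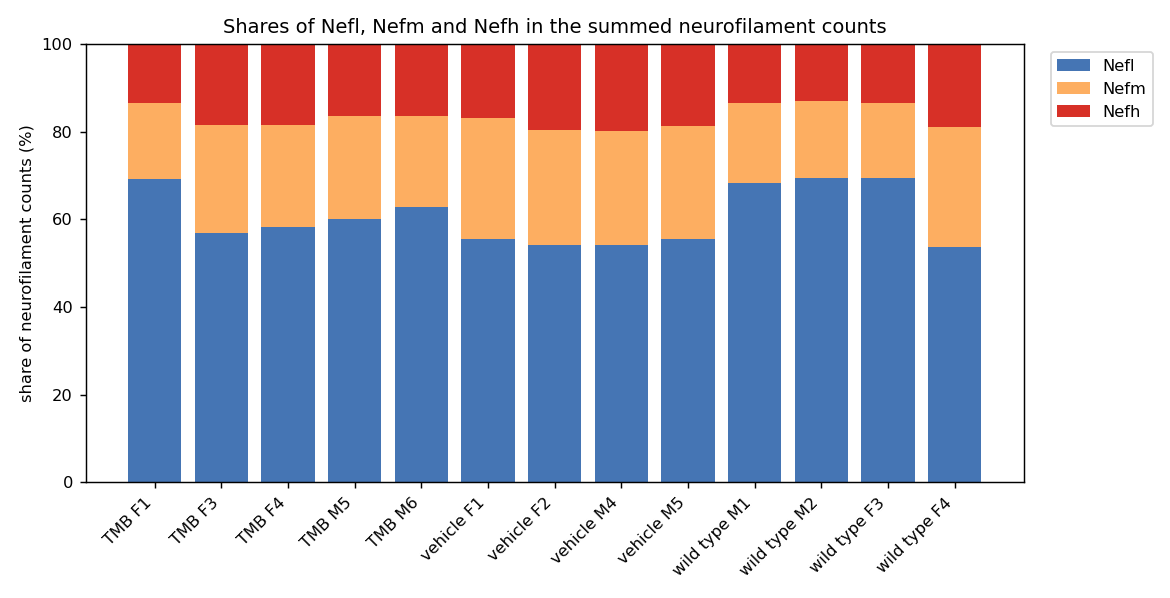
Share of Nefl, Nefm and Nefh in the summed counts of the 3 neurofilament genes (vertical axis, percent), one stacked bar per library, with TMB, vehicle and wild-type libraries from left to right. The Nefl share was 69.1% in TMB F1 and 53.7% in wild type F4, each outside the range of the other libraries of its own group.

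Nefl and Nefm are neighbours on chromosome 14 (GRCm38). Nefl lies on the plus strand at 68083863 to 68089095 and Nefm on the minus strand at 68082590 to 68124846, and 1108 bases of exon belong to both in the GENCODE M21 annotation, which is 32.8% of the Nefl and 19.2% of the Nefm exon length. The sources used here do not say if strand was considered when reads were counted, so reads from that stretch may not be assigned with certainty to either gene. Nefh lies apart on chromosome 11, at 4938754 to 4948064 on the minus strand, and shares no exon with another gene.

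Among the Pou4f factors, Pou4f2 gave the largest difference. Pou4f2, which in the mouse is needed for ganglion cell differentiation and axon outgrowth, measured 8.18, 10.4, 11.6, 13.5 and 11.3 CPM in TMB libraries F1, F3, F4, M5 and M6. Vehicle libraries F1, F2, M4 and M5 held 12.5, 10.01, 11.1 and 11.2 CPM, against 18.1, 15.8, 15.8 and 13.5 CPM in wild type M1, M2, F3 and F4. All vehicle libraries lay below all wild-type libraries, and in the TMB group only M5 reached the level of wild type F4. In the fit, Pou4f2 was at -0.60 ± 0.14 for TMB (edgeR, adjusted p = 0.0124) and -0.58 ± 0.15 for vehicle against wild type (edgeR, adjusted p = 0.00983). The vehicle call was made in all 26 alternative settings. For TMB it was lost without wild type M1, at -0.53 ± 0.15 (edgeR, adjusted p = 0.0509). The TMB call was also lost with the replicate number as a block, at -0.68 ± 0.18 (edgeR, adjusted p = 0.0771).

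Pou4f1, a factor of many ganglion cell types, measured 36.4, 38.6, 39.6, 40.5 and 39.7 CPM in TMB libraries F1, F3, F4, M5 and M6. Vehicle libraries F1, F2, M4 and M5 held 47.0, 34.3, 38.7 and 49.1 CPM, against 48.4, 47.2, 46.3 and 48.4 CPM in wild type M1, M2, F3 and F4. All TMB libraries lay below all wild-type libraries, while the vehicle libraries were mixed, F1 and M5 being within or above the wild-type range. Pou4f1 was at -0.37 ± 0.09 for TMB (edgeR, adjusted p = 0.0237) and -0.26 ± 0.10 for vehicle against wild type, which did not pass (edgeR, adjusted p = 0.0548). The vehicle result was close to the threshold: it was called in 9 of 26 alternative settings, among them DESeq2 (-0.27, adjusted p = 0.0309), limma-trend, the fit without wild type F4 (-0.25, edgeR, adjusted p = 0.0416) and the one without vehicle M5, so no difference between the TMB and vehicle groups follows from these calls. The TMB call was lost without wild type M1, wild type M2, TMB F3 or TMB F4, with a log2 fold change of -0.38 to -0.34 whichever library was left out. With the replicate number as a block it was lost as well, at -0.46 ± 0.11 (edgeR, adjusted p = 0.0531).

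Pou4f3, found in a smaller set of ganglion cells, averaged 4.34 ± 0.451 CPM in TMB libraries (SD, n = 5), 5.54 ± 1.01 in vehicle libraries and 4.95 ± 1.26 in wild type (SD, n = 4 each). The ranges of all groups overlapped. Neither the -0.27 ± 0.19 for TMB (edgeR, adjusted p = 0.378) nor the 0.07 ± 0.19 for vehicle (edgeR, adjusted p = 0.793) passed the test. The 3 factor genes lie on chromosomes 14 (Pou4f1, 104461676 to 104467999), 8 (Pou4f2, 78433010 to 78436645) and 18 (Pou4f3, 42394539 to 42397249), and at most 0.73% of their transcript 50-base words occur in another gene, Pou4f1 and Pou4f2 sharing theirs.

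Slc17a6 encodes the vesicular glutamate transporter VGLUT2, which loads the synaptic vesicles of ganglion cells. It measured 101, 87.9, 89.7, 104 and 93.8 CPM in TMB libraries F1, F3, F4, M5 and M6, and 85.1, 77.9, 82.8 and 86.0 CPM in vehicle libraries F1, F2, M4 and M5. Wild type M1, M2 and F3 held 142, 139 and 147 CPM and wild type F4 91.4 CPM. Vehicle libraries were therefore below all wild-type libraries, and TMB libraries were below 3 of 4, with wild type F4 inside their range. Slc17a6 was at -0.53 ± 0.11 for TMB (edgeR, adjusted p = 0.00906) and -0.74 ± 0.12 for vehicle against wild type (edgeR, adjusted p = 0.00099). Without wild type F4 the log2 fold changes were -0.66 and -0.87, both called. With the replicate number as a block the vehicle call was kept and the TMB call was lost (-0.53 ± 0.14, edgeR, adjusted p = 0.0682).

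Slc17a6, Pou4f2 and Sncg have start sites in the RefSeq promoter table of build GRCm38.p6, and their upstream sequence is shown because Slc17a6 and Pou4f2 were lower in both Rpe65-/- groups while Sncg was not. RefSeq gives a pair of starts for Slc17a6 (chromosome 7, gene at 51622006 to 51671119, plus strand). The sequence before the downstream start, chr7:51624387-51624636 on the plus strand, falls in an intron of the GENCODE gene and is 41.2% GC. The sequence before the upstream start, chr7:51621580-51621829, is 53.2% GC, holds no match to the motif below and is not printed. Capitals mark ATTAATTAT, the reverse complement of the Brn3 core motif ATAATTAAT that was searched on both strands:
Slc17a6 downstream start: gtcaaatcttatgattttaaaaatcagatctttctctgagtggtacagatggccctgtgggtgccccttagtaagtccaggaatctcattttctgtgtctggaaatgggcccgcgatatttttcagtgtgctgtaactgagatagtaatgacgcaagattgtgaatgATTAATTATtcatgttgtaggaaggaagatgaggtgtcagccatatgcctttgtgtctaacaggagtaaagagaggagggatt
Pou4f2 (chr8:78436648-78436897, minus strand, 70.8% GC): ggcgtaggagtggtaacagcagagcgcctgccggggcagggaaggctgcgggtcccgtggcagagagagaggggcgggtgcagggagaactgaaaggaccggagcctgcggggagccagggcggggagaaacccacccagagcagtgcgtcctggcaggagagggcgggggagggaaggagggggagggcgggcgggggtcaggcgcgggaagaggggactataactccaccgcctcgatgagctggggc
Sncg (chr14:34374790-34374919, minus strand, 56.9% GC): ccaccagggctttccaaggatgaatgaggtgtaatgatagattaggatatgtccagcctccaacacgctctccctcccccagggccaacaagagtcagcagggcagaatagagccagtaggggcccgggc

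In windows of 300 bases around the RefSeq starts, 250 before and 50 after, the motif was found once before the downstream start of Slc17a6 and at no other start of the 4 members with an entry (Slc17a6, Pou4f1, Pou4f2 and Sncg). Of all 32851 promoters in the table, 90 (0.274%) hold it. A match of 9 letters is a description of the sequence only.

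Rbpms encodes an RNA-binding protein used as a marker of the whole ganglion cell population. It measured 35.4, 41.8, 48.4, 43.5 and 41.6 CPM in TMB libraries F1, F3, F4, M5 and M6 and 40.5, 36.0, 41.2 and 39.1 CPM in vehicle libraries F1, F2, M4 and M5. Wild type M1, M2, F3 and F4 held 51.0, 52.8, 45.5 and 41.2 CPM, so that only wild type F4 met the vehicle range. Rbpms was lower in the vehicle group, with a log2 fold change of -0.37 ± 0.10 (edgeR, adjusted p = 0.0157), while -0.26 ± 0.10 for TMB against wild type did not pass (edgeR, adjusted p = 0.111). Without wild type F4 both were called, at -0.32 for TMB and -0.43 for vehicle, whereas the vehicle call was lost without wild type M1 (-0.33, edgeR, adjusted p = 0.0544) or M2. The vehicle call was also lost with the replicate number as a block (-0.39 ± 0.14, edgeR, adjusted p = 0.0729).

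Sncg, encoding gamma-synuclein, and Thy1, encoding a glycolipid-anchored surface glycoprotein, passed the test in neither comparison with wild type. Sncg measured 51.8, 70.5, 64.03, 57.5 and 55.3 CPM in TMB libraries F1, F3, F4, M5 and M6 and 94.5, 52.8, 76.6 and 88.0 CPM in vehicle libraries F1, F2, M4 and M5. Wild type M1, M2 and F3 held 42.3, 46.7 and 40.0 CPM and wild type F4 77.5 CPM, so all 9 Rpe65-/- libraries were above 3 wild-type libraries and the fourth lay among them. The log2 fold change was 0.13 ± 0.19 for TMB (edgeR, adjusted p = 0.68) and 0.50 ± 0.20 for vehicle (edgeR, adjusted p = 0.0585). Without wild type F4, Sncg was called higher in both, at 0.40 ± 0.14 for TMB (edgeR, adjusted p = 0.0317) and 0.77 ± 0.14 for vehicle (edgeR, adjusted p = 0.000276), and without vehicle F2 it was called higher in the vehicle group at 0.64 ± 0.19 (edgeR, adjusted p = 0.0231).

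Thy1 averaged 158 ± 18.8 CPM in TMB libraries (SD, n = 5), 179 ± 23.5 in vehicle libraries and 149 ± 37.3 in wild type (SD, n = 4 each), where F4 held 202 CPM and the others 114 to 140 CPM. Its log2 fold change was 0.00 ± 0.14 for TMB (edgeR, adjusted p = 0.998) and 0.17 ± 0.15 for vehicle (edgeR, adjusted p = 0.376). Without wild type F4, Thy1 was called higher in the vehicle group at 0.35 ± 0.11 (edgeR, adjusted p = 0.0112) and not in the TMB group. T cells also carry Thy1. The 5 T cell genes listed summed to 0.724 to 1.33 CPM in TMB libraries and 0.395 to 1.39 CPM in vehicle libraries. In wild type they summed to 0.13 to 2.07 CPM, and Cd3e and Cd3d were at 0 in most libraries. The part of T cells in the Thy1 counts was not tested.

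**Figure D3:**
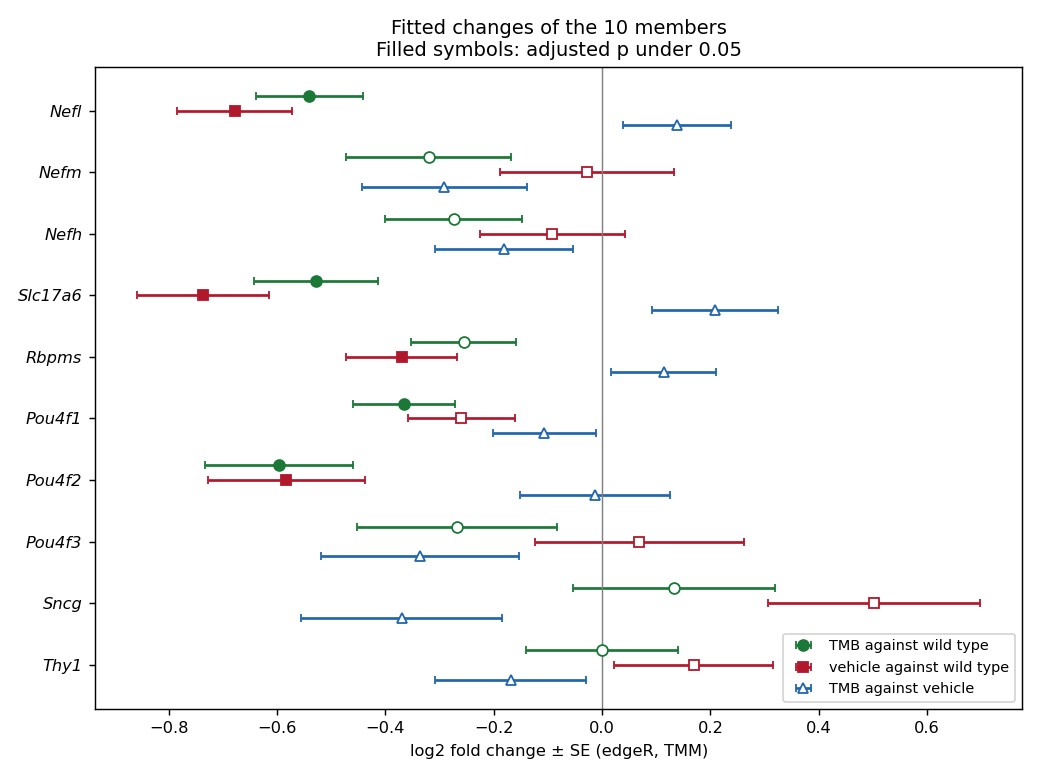
Log2 fold change of each member with its standard error (horizontal axis, edgeR with TMM scaling) for TMB against wild type, vehicle against wild type and TMB against vehicle, filled where the adjusted p was under 0.05. Nefl, Slc17a6 and Pou4f2 were called lower in both comparisons with wild type, and no member was called between TMB and vehicle.

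The direct comparison of TMB with vehicle addresses whether the treatment moved these genes in Rpe65-/- retina. No member passed the test, and neither did any other gene (0% of 16782) by edgeR or limma, although 3064 genes, and none of the members, had an unadjusted edgeR p under 0.05. DESeq2 called 55 genes and no member. By range, the TMB libraries of Slc17a6, from 87.9 to 104 CPM, were all above its vehicle libraries, from 77.9 to 86.0 CPM, as was seen for 7.18% of all genes (14.2% apart in either direction, 7.06% lower). The log2 fold change of Slc17a6 was 0.21 (95% interval -0.05 to 0.47, edgeR, adjusted p = 0.318). Sncg had the largest value in the other direction, -0.37 (95% interval -0.78 to 0.04, edgeR, adjusted p = 0.287).

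For the remaining members the intervals bound how far TMB and vehicle could differ. Nefl differed by 0.14 (95% interval -0.09 to 0.36) and Pou4f2 by -0.01 (-0.32 to 0.30), which leaves room for differences of either sign. Nefm, at -0.29 (-0.63 to 0.05), and Pou4f3, at -0.34 (-0.74 to 0.07), were lower by point estimate only. Nefh was at -0.18 (-0.46 to 0.10) and Pou4f1 at -0.11 (-0.32 to 0.10). Rbpms was at 0.11 (-0.10 to 0.33) and Thy1 at -0.17 (-0.48 to 0.14). When wild type F4 was left out of the shared fit, Slc17a6 was called higher in TMB libraries at 0.21 and Sncg lower at -0.37, beside 16% of all genes called (8.02% in each direction).

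Apart from the test, the vehicle and wild-type ranges in CPM did not overlap for 3 members (Nefl, Slc17a6 and Pou4f2, all lower), as for 19.4% of all genes (5.28% lower and 14.1% higher). Between TMB and wild type the same held for Nefl and Pou4f1, both lower, as for 11.5% of all genes (3.22% lower and 8.26% higher). The 10 members summed to 855 to 962 CPM in TMB libraries, 785 to 1071 CPM in vehicle libraries and 1078 to 1141 CPM in wild type. With Nefl taken out, the other 9 summed to 517 to 647, 557 to 746 and 616 to 786 CPM in the same order, and the ranges overlapped.

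Which members were called went with the GC content of their transcripts. The 5 with the lower GC content, Slc17a6 (42.9%), Nefl (48.9%), Pou4f1 (49.8%), Rbpms (49.9%) and Pou4f2 (50.5%), held all 4 calls in each comparison with wild type. The 5 with the higher GC content, from Pou4f3 (53.7%) through Thy1, Sncg and Nefm to Nefh (58.4%), held none. Among all genes, the share called lower in vehicle libraries was 47.5% in the 20% with the lowest GC content and 1.56% in the 20% with the highest, and in TMB libraries 7.27% and 1.77%. Wild type F4 lay above its group for all of the high-GC members, with a mean of 0.49 above the gene means over all libraries (log2), against -0.22 to -0.10 in the other wild-type libraries.

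The fit was then repeated with an offset that took out the trend of each library with GC content. This trend differed between the groups, as given above for the GC-richest genes, and the offset had no term for group. A technical trend and a difference of genotype that follows GC content cannot be told apart by it. It called 7 of the 10 members lower and none higher in both comparisons, beside 15.8% of all genes for TMB against wild type (9.37% lower and 6.45% higher) and 19.4% for vehicle (11.6% lower and 7.78% higher). With the offset, and subject to that limit, Nefm and Nefh were called lower beside Nefl. Nefm was at -0.51 ± 0.08 for TMB (edgeR, adjusted p = 0.000128) and -0.47 ± 0.08 for vehicle (edgeR, adjusted p = 0.000495). Nefh was at -0.50 ± 0.07 for TMB (edgeR, adjusted p = 0.000135) and -0.58 ± 0.08 for vehicle (edgeR, adjusted p = 5.12e-05).

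The other members moved by less. Nefl stayed at -0.55 for TMB and -0.68 for vehicle, and Slc17a6 shrank to -0.41 and -0.43, all called. Pou4f1 (-0.40 and -0.31), Pou4f2 (-0.65 and -0.67) and Rbpms (-0.29 and -0.43) were called in both. Sncg (-0.02 and 0.13), Thy1 (-0.15 and -0.17) and Pou4f3 (-0.37 and -0.17) were called in neither. Between TMB and vehicle no member was called (0.0119% of all genes, all higher), and Slc17a6 and Sncg were at 0.03 and -0.15.

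**Figure D4:**
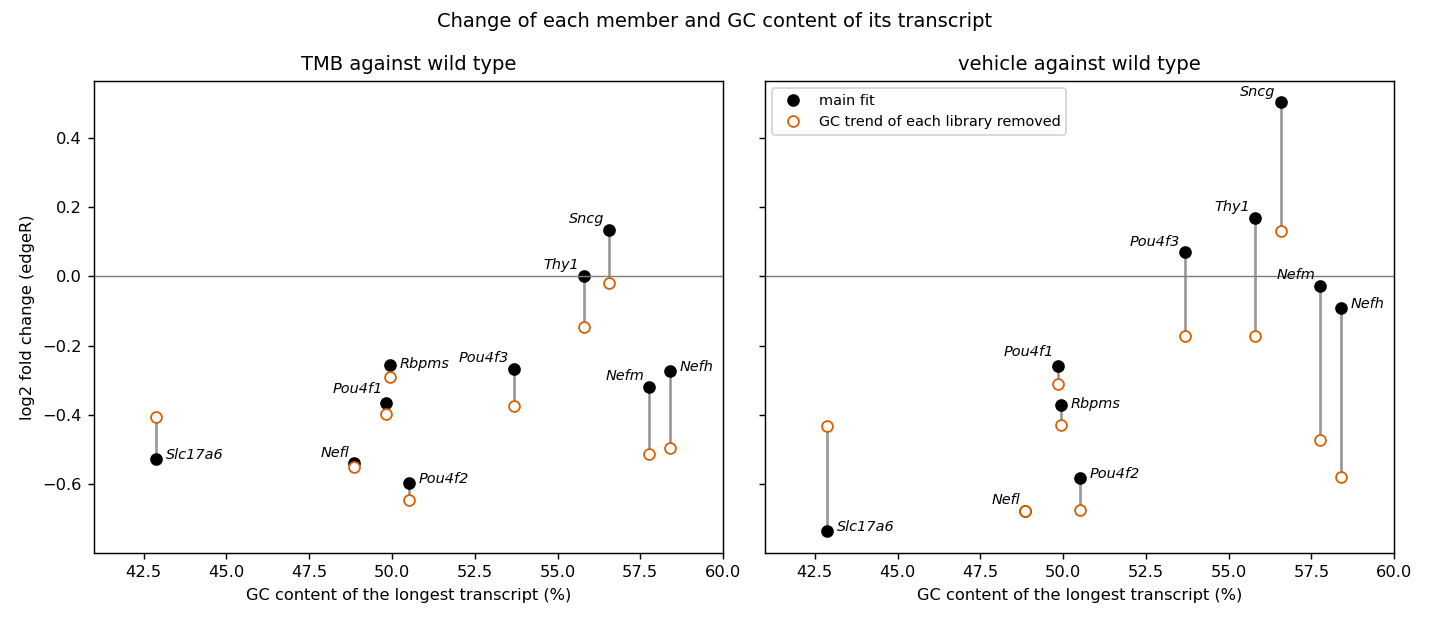
Log2 fold change against wild type (vertical axis, edgeR) by GC content of the longest transcript of each member (horizontal axis, percent), for TMB (left) and vehicle (right), from the fit without an offset (filled) and with the library-wise GC offset (open). Nefm moved to -0.51 for TMB, against -0.32 without the offset, and to -0.47 for vehicle, against -0.03, while Nefl changed by little.

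A list of 20 further genes enriched in ganglion cells gave a mixed result. Of the 19 in the test, 3 were lower and none higher in TMB libraries against wild type (median log2 fold change -0.10), and 6 were lower and 1 higher in vehicle libraries (median 0.01), beside 9.53% and 33.9% called and medians of 0.00 and 0.02 over all genes. The total vehicle count was thus near the background. By direction, 5.02% of all genes were lower and 4.51% higher for TMB, and 18.3% and 15.7% for vehicle. Spp1, encoding osteopontin, a product of alpha ganglion cells, averaged 12.6 CPM in TMB libraries, 9.80 in vehicle libraries and 21.2 in wild type, with log2 fold changes of -0.83 ± 0.11 (edgeR, adjusted p = 0.000168) and -1.20 ± 0.12 (edgeR, adjusted p = 9.75e-06). Adcyap1, the PACAP precursor of melanopsin ganglion cells, was at -0.58 ± 0.14 for TMB (edgeR, adjusted p = 0.0161) and -1.07 ± 0.15 for vehicle (edgeR, adjusted p = 0.000266). Prph, encoding the intermediate filament peripherin, was low in all groups (1.43, 1.41 and 3.63 CPM in TMB, vehicle and wild type) and at -1.42 ± 0.22 for TMB (edgeR, adjusted p = 0.000564) and -1.46 ± 0.23 for vehicle (edgeR, adjusted p = 0.000725). Jam2, which marks a direction-selective ganglion cell type, was lower in vehicle libraries alone (-0.44 ± 0.11, edgeR, adjusted p = 0.00865, against -0.11 ± 0.10 in TMB libraries, adjusted p = 0.536), and the difference between the groups was not called (0.34, adjusted p = 0.253), although it was without wild type F4, as were 16% of all genes.

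Stmn2 and Chrna6 were also lower and Kcng4 higher in vehicle libraries, and the general neuronal genes Tubb3, Ina and Gap43 were not called in either comparison of the main test. Without wild type F4 the count for this list became 5 lower and 3 higher in TMB libraries and 7 lower and 5 higher in vehicle libraries, beside 38% and 55.6% of all genes. Tubb3 was then among the higher ones in vehicle libraries. Without vehicle F2 the count was 3 lower and none higher in TMB libraries and 5 lower and 1 higher in vehicle libraries. Of all genes, 8.87% and 30.6% were called in that fit. With the GC offset the count was 5 lower and none higher in TMB libraries and 5 lower and 1 higher in vehicle libraries. Of all genes, 15.8% and 19.4% were called with the offset. Spp1, Adcyap1, Prph and Ina were then among the lower ones of both, and Tubb3 among the lower ones of TMB libraries.

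Among genes that rise in ganglion cells after axon injury, few were called, and which ones depended on the fit. Of 8 in the test, 1 was lower in TMB libraries (Chac1, encoding a glutathione-degrading enzyme, -1.39 ± 0.35, edgeR, adjusted p = 0.0215). In vehicle libraries Jun, a stress-responsive transcription factor, was higher (0.47 ± 0.17, edgeR, adjusted p = 0.042) and Gadd45a, a growth arrest gene, was lower (-0.33 ± 0.11, edgeR, adjusted p = 0.0353). Jun averaged 44.3 CPM in TMB libraries, 45.3 in vehicle libraries and 30.8 in wild type, and in the TMB comparison it was at 0.44 ± 0.16 (edgeR, adjusted p = 0.0908). The list had a median log2 fold change of -0.08 for TMB and 0.03 for vehicle, beside -0.003 and 0.017 over all genes. Of all genes, 9.53% were called for TMB and 33.9% for vehicle.

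The medians of this injury list were 0.23 and 0.32 without wild type F4, beside 0.03 and 0.02 over all genes. In that fit 1 of the 8 was lower and 2 were higher in each group, beside 38% and 55.6% of all genes called. Jun was then higher in both groups, at 0.66 ± 0.12 for TMB (edgeR, adjusted p = 0.000624) and 0.68 ± 0.12 for vehicle (edgeR, adjusted p = 0.000231). The stress-induced factor genes Atf3, in TMB libraries (0.51 ± 0.16, edgeR, adjusted p = 0.0188), and Ddit3, in vehicle libraries (0.26 ± 0.10, edgeR, adjusted p = 0.0286), were also called higher, while Chac1 in TMB libraries and Gadd45a in vehicle libraries were again lower. Without vehicle F2 the Gadd45a call was lost (edgeR, adjusted p = 0.0811), and Gal was called higher beside Jun in the vehicle group. With the GC offset Jun was called in TMB libraries (0.30 ± 0.09, edgeR, adjusted p = 0.0309) and not in vehicle libraries (0.14 ± 0.10, edgeR, adjusted p = 0.311), and the medians were -0.10 and -0.16.

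Neighbouring inner retinal neurons were mixed. Of 10 amacrine genes, none was called in TMB libraries and 3 in vehicle libraries (2 higher, 1 lower), the vehicle count being near the 33.9% of all genes. Of 7 horizontal cell genes, 1 was lower in TMB libraries, while 2 were higher and 2 lower in vehicle libraries. Over all genes 9.53% were called for TMB. Calb1 was the horizontal cell gene lower in both groups. It was at -0.89 for TMB (edgeR, adjusted p = 0.00046) and -1.10 for vehicle (edgeR, adjusted p = 0.000123). The horizontal list had a median log2 fold change of -0.47 for TMB and -0.13 for vehicle, beside -0.30 and -0.18 for the members. The amacrine medians were -0.04 and 0.02. Amacrine calls without wild type F4 were 2 higher and 1 lower in TMB libraries and 3 higher and 2 lower in vehicle libraries, and the horizontal cell calls 2 higher and 3 lower in TMB libraries and 2 higher and 2 lower in vehicle libraries, beside 38% and 55.6% of all genes. Without vehicle F2 the vehicle counts were 1 higher and 1 lower for amacrine genes and 1 higher and 2 lower for horizontal cell genes. In that fit 30.6% of all genes were called for vehicle. With the GC offset, amacrine calls were none in TMB libraries and 1 lower in vehicle libraries, and horizontal cell calls were 2 lower in each. The shares of all genes called with the offset were 15.8% for TMB and 19.4% for vehicle.

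Several other cell types differed in summed marker level between the groups. Nerve fibre layer astrocyte genes summed to 99.6 to 122 CPM in TMB libraries, 88.0 to 161 in vehicle libraries and 53.1 to 65.1 in wild type (2 of 5 called higher for TMB and 3 for vehicle), Gfap, which stressed Mueller glia also make, being among those called in both. Mueller glia genes summed to 4338 to 4858 CPM in TMB libraries, 4444 to 6399 in vehicle libraries and 3610 to 4525 in wild type (none and 4 of 8 higher), and endothelial genes to 220 to 257, 241 to 302 and 212 to 230 CPM in the same order (none and 2 of 6 higher). Pigment epithelium genes summed to 125 to 175 CPM in TMB libraries, 104 to 488 in vehicle libraries, the 488 in F2, and 47.6 to 97.3 in wild type (1 and 4 of 7 higher). Over all genes 4.51% were called higher for TMB and 15.7% for vehicle. Leaving out wild type F4, beside 19.6% and 28.5% of all genes, the counts higher for TMB and vehicle were 3 and 4 astrocyte genes, none and 6 Mueller glia genes, none and 3 endothelial genes and 5 and 5 pigment epithelium genes. Without vehicle F2 they were 1 and 4, none and 5, none and 1, and 4 and 5, beside 4.18% and 13.6% of all genes. With the GC offset they were 2 and 2, none and 3, none and 1, and 4 and 4, beside 6.45% and 7.78% of all genes. Rod genes, the bulk of the retina, summed to 55420 to 61380 CPM in TMB libraries, 57100 to 66150 in vehicle libraries and 61020 to 77800 in wild type. Of 10 rod genes, 1 was lower for TMB and 4 for vehicle, beside 5.02% and 18.3% of all genes. The rod medians were -0.26 and -0.25. Without wild type F4, 5 and 4 were lower, beside 18.4% and 27.1%. Without vehicle F2, 1 and 5 were lower, beside 4.7% and 17.1%. With the GC offset, 6 and 7 were lower, beside 9.37% and 11.6%. Sag was higher in both groups in each of these fits. Oligodendrocyte genes, which come with the optic nerve head, overlapped at 56.6 to 67.5, 55.1 to 74.8 and 54.5 to 66.7 CPM in TMB, vehicle and wild-type libraries. Of the 4 in the test, Cnp was higher for vehicle (0.614 ± 0.185, edgeR, adjusted p = 0.0223) and none was called for TMB. Without wild type F4, Cnp was called higher in both groups, and with the GC offset none was called. The part of these shifts in the levels of the ganglion cell genes was not tested.

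Finally, genes were ranked by how closely their levels followed the mean standardized level of the 10 members over the 13 libraries. Symbols of the Gm or Rik form, clone names and genes on the X and Y chromosomes were passed over. Among the 10668 other genes that were left and averaged 5 CPM or more, the closest were Scn4b (Pearson r = 0.953, Spearman rho = 0.978), Vamp1 (0.914 and 0.83), Hipk4 (0.889 and 0.791), Slc6a17 (0.886 and 0.863) and Lrfn2 (0.886 and 0.885). The libraries share genotype groups and the GC-linked axis described above, so these values are descriptions and carry no test. The mean standardized level was highest in wild type F4 at 1.12 and lowest in TMB F1 at -1.12, with vehicle F2 next lowest at -0.88.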

How the data were processed

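Bulk polyA RNA from 13 mouse retinas was analysed. The values used were the deposited raw counts of 29700 nuclear and 16 mitochondrial genes; per the labels and methods of the study, the authors trimmed reads with Trimmomatic, aligned them to GRCm38 with STAR and counted them with HTSeq. The sources used here do not say if counting considered strand. The wild-type counts were listed in a pair of column sets with identical values. Deposited log2 fold changes, p-values and adjusted p-values of the authors' own DESeq2 comparisons were not used. The deposited sample sheet leaves out wild type M1 and gives vehicle F1 the wild-type genotype, whereas its label is Rpe65-/- and it held 6 Rpe65 counts.

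Groups were taken from the labels. The main test was the quasi-likelihood test of edgeR 4.0.16 in R 4.3.3, with 1 fit over all 13 libraries, TMM scaling, the filterByExpr filter and no covariate, and p-values were adjusted over 16782 genes. The standard error is the log2 fold change divided by the square root of F, and 95% intervals use 10 residual degrees of freedom. CPM values are unscaled. The scripts were tested on simulated counts. The labels name 1 retina per mouse and no litter or batch.

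The results were recomputed with limma-trend (limma 3.58.1, prior count 2), with DESeq2 1.42.0, with other size factors, no filter, a mean count of at least 100, sex, the replicate number as a block, only the groups compared, leaving out each library, wild type F4 with vehicle F2, and an offset for the GC trend of each library (GC content known for 99.6% of genes tested). Sex was entered as labelled, with vehicle F2 as female despite its Xist and Eif2s3y counts. Leaving out wild type F4 with TMB F1 was added after the data were seen. Annotation came from GENCODE M21 and promoter sequences from RefSeq (GRCm38.p6). All 10 members are named, and from each further list up to 4 genes with the smallest adjusted p; other names were chosen after their values were seen. The members and lists were chosen with earlier results of these data known.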

Additional observations from a re-analysis of the deposited data

Results flagged for a closer look

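Within each group of 4 or 5 libraries, the gap between the highest or lowest library and its nearest neighbour was set against the whole range (Dixon's 95% critical value). Of 30 sets of values, 10 genes in 3 groups, 3 exceeded it, where chance gives about 1 in 20, and all 3 concern wild type F4. Nefm was 181 CPM in wild type F4, with the nearest wild-type library at 118 CPM. Nefh was 125 CPM in the same library, with the nearest at 89.6 CPM. Slc17a6 was 91.4 CPM there, with the nearest at 139 CPM. The first pair have GC-rich transcripts (57.8% and 58.4%) and Slc17a6 has the lowest GC content of the members (42.9%).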

How the results depend on the processing

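For vehicle against wild type, 4 members were called, 7 (all lower) with the GC trend removed, alone or with the replicate block, and 7 (5 lower, 2 higher, beside 56.7% of all genes) without wild type F4 and TMB F1 (chosen after seeing the data); leaving out 1 library gave 3 to 7, the 7 without wild type F4. For TMB against wild type, 4 were called, 7 (all lower) with the GC trend removed, 7 (5 lower, 2 higher, beside 41.6% of all genes) without wild type F4 and TMB F1, and 1 (Nefl) with the replicate block; leaving out 1 library gave 2 to 6, the 2 without wild type M1 and the 6 without wild type F4. Between TMB and vehicle 0 were called, 1 (Slc17a6, beside 14.7% of all genes) in a fit of these groups alone and 2 (Nefm and Sncg, both lower) without wild type F4 and vehicle F2, where 20.2% of all genes were called; leaving out 1 library gave 0 to 2. Replicate numbers did not pair the samples: 9 same-number pairs correlated at -0.171 to 0.252, 3 of them over 0.1. With this block 0 members were called between TMB and vehicle, and 3 for vehicle against wild type. Over all genes, the counts for TMB and for vehicle against wild type and between TMB and vehicle were 1600, 5697 and 0 in the chosen fit, 567, 2224 and 0 with the block, 1053, 2861 and 2402 with only the groups compared, 6490, 9508 and 2741 without wild type F4, and 2654, 3260 and 2 with the GC trend removed.

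No called member changed sign in any alternative. The sign changes among members not called were these. For vehicle against wild type, without wild type F4 and vehicle F2 Nefm was 0.246 and Nefh 0.114, without wild type F4 and TMB F1 they were 0.169 and 0.057, with the GC trend removed Pou4f3 was -0.173 and Thy1 -0.172, and with the block added -0.21 and -0.222. Leaving out 1 library spanned -0.109 to 0.169 for Nefm, -0.165 to 0.057 for Nefh and -0.072 to 0.239 for Pou4f3. For TMB against wild type, Sncg was -0.018 with the GC trend removed and -0.081 with the block added. Thy1, reported at 0, was -0.01 by DESeq2 and with its size factors, -0.002 with no filter and with sex, -0.041 with the block, -0.147 with the GC trend removed, -0.19 with both, and -0.11 to 0.182 without 1 library. For TMB against vehicle, removal of the GC trend put Nefh at 0.083, Pou4f2 at 0.028 and Thy1 at 0.026, with the block added Nefh was 0.021 and Thy1 0.032, and without wild type F4 and TMB F1 Pou4f2 was 0.076; leaving out 1 library spanned -0.097 to 0.076 for Pou4f2. The causes were not tested. The lowest count of any member in a library was 58, for Pou4f3.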

Other observations

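The proportion of the Pou4f factors varied from library to library. The ratio of Pou4f1 to Pou4f2 counts was 2.99 to 4.45 in TMB libraries, 3.43 to 4.38 in vehicle libraries and 2.67 to 3.60 in wild type, with wild type F4 the highest of its group. The summed level of the 3 factors was 48.9 to 59.0 CPM in TMB libraries, 48.5 to 66.5 CPM in vehicle libraries and 66.5 to 71.3 CPM in wild type, so the TMB libraries were all below wild type and vehicle M5 touched its lower end. Pou4f1, the most abundant of the 3, lay apart in the same way for TMB by itself. These values were looked at after the single genes had been seen and were given no test.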
